A study of Mus musculus with 12 samples.

Results

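The annexins and the S100 proteins described here are 10 genes of the mouse dorsal root ganglion, of 23238 gene symbols counted. They are the annexins Anxa1, Anxa2, Anxa5 and Anxa6 and the S100 genes S100a4, S100a6, S100a10, S100a11, S100a13 and S100b. They were taken by symbol, and the S100 genes of neutrophils, S100a8 and S100a9, were not among them. Ganglia of lumbar levels 3 to 5 were collected from C57BL/6 mice at postnatal week 8, and their polyadenylated RNA was sequenced from the 3′ end. The 12 libraries form 4 groups of 3: females with sciatic nerve injury (Female SNI), females with sham surgery (Female sham), males with sciatic nerve injury (Male SNI) and males with sham surgery (Male sham). The labels name no mutant allele, transgene or drug in any group. The kind of injury, the time from surgery to dissection and whether a library came from 1 animal or a pool are facts that the sources used here do not give. P-values therefore rest on the scatter among these libraries, part of which may be technical.

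Annexins are cytoplasmic proteins that bind acidic phospholipids of membranes when calcium rises, and they take part in membrane repair, vesicle traffic and exocytosis. S100 proteins are small dimers with EF-hand calcium-binding loops, and several act by binding an annexin: S100A10, which has lost the ability to bind calcium, joins annexin A2 in a complex at the plasma membrane, and S100A11 binds annexin A1. In sensory ganglia S100A10 is known for carrying the sodium channel Nav1.8 and the acid-sensing channel ASIC1 to the cell surface, and S100B is widely used as a marker of glia. The ganglia were sequenced whole, so the counts do not place any of the genes in neurons, and fewer cells of a type cannot be told apart from less RNA per cell.

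The total count was 12476606 to 15520746 per library, and the 10 genes together took 0.831 to 0.864% of it in Female SNI, 0.808 to 0.863% in Female sham, 0.838 to 0.944% in Male SNI and 0.759 to 0.808% in Male sham. The injury gene Atf3 stood at 275 to 361 CPM, counts per 1000000 on scaled library totals, in SNI libraries and at 43.6 to 56.7 CPM in sham libraries, and Xist and the Y-linked genes went against no label. A pair of libraries stood apart from the rest. Along the leading principal axis of log2 CPM, with 34.1% of the variance, Male SNI replicate 2 lay at 75.5 and Female sham replicate 2 at 38.0, against -27.0 to 2.67 for the other libraries. Within their own groups both had the lowest level of Anxa1, S100a6, S100a10 and S100a11 and the highest level of Anxa2, Anxa5, Anxa6, S100a4 and S100b. For Anxa1, Anxa2 and S100a10 the male results are also given without Male SNI replicate 2. For Anxa1, S100a10 and S100a11 the female changes are also given as a range over the fits that left out 1 library. The fit without Female sham replicate 2 is among these.

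The promoters of S100a11, Anxa2 and Anxa1 are shown because S100a11 and Anxa1 rose, as described below, and annexin A2 is the partner of S100A10. They are RefSeq sequences of GRCm38.p6, 250 bases before the annotated start to 50 after it. Capitals mark the AP-1 motif (TGACTCA, or TGAGTCA read on the other strand) and the TATA box letters TATAAA at any position. The S100a11 promoter at chr3:93520246-93520545 on the plus strand held the AP-1 motif at 2 places. The Anxa2 promoter at chr9:69453433-69453732 on the plus strand held 1 AP-1 motif and a TATA box. The Anxa1 promoter at chr19:20390622-20390921 on the minus strand held a TATA box.
S100a11: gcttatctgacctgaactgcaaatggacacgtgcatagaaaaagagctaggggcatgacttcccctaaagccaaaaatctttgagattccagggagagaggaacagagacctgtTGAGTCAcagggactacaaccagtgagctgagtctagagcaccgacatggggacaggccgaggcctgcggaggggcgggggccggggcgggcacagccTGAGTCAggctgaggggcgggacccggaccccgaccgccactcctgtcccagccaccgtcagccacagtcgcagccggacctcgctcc
Anxa2: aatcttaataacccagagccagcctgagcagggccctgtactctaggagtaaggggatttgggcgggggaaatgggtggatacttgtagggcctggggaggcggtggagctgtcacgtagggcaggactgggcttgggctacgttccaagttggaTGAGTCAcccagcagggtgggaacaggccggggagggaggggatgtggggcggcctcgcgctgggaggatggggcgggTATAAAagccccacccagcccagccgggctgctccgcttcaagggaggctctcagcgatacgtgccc
Anxa1: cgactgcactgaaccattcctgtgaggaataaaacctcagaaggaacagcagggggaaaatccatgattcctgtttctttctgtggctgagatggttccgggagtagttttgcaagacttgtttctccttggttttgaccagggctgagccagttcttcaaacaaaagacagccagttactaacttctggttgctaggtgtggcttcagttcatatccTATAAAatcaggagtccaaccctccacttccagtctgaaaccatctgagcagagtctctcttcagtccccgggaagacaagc
Promoter sequences were matched for 8 of the 10 genes, all but Anxa6 and S100a10. Searched on both strands, the AP-1 motif was in 2 of the 8 and in 5.2% of the 32851 promoters in the table. At least 2 AP-1 motifs, as in S100a11, were in 0.222% of them. The TATA box letters were in 3 of the 8, those of Anxa1, Anxa2 and S100a4, and in 13.6% of all promoters. Their first base lay at -32, -17 and -31 from the annotated start, in that order, and the search was not limited by position. The Sp1 motif GGGCGG was in the promoters of S100a11 and Anxa2 and in 35.7% of all promoters, and the E-box CACGTG in those of S100a6 and S100a11 and in 7.15% of all promoters. The CRE motif TGACGTCA, the STAT motif TTCCNGGAA and the C/EBP motif TTGCGCAA were in 0 of the 8, and in 1.79%, 1.15% and 0.18% of all promoters. No matches overlapped one another in these promoters. A match is a description of letters and not of binding.

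After nerve injury, averaged over the sexes, 3 of the 10 genes rose: S100a11, S100a10 and Anxa1. No member fell in edgeR's quasi-likelihood test with Benjamini-Hochberg adjustment, and the count of those that fell was also 0 at an unadjusted p under 0.05, with DESeq2 and with limma's voom with library quality weights. Of all 15036 genes tested, 3.78% rose and 2.73% fell, and all 10 members passed the filter on low counts. The median log2 change of the 10 was 0.16, against 0.0031 over all genes tested. The annexins had 1 of 4 called and the S100 genes 2 of 6. At an unadjusted p under 0.05, 5 of the 10 were higher, the other two being Anxa2 and Anxa5. The 7 genes without a call had log2 changes between -0.18 and 0.38.

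**Figure D1:**
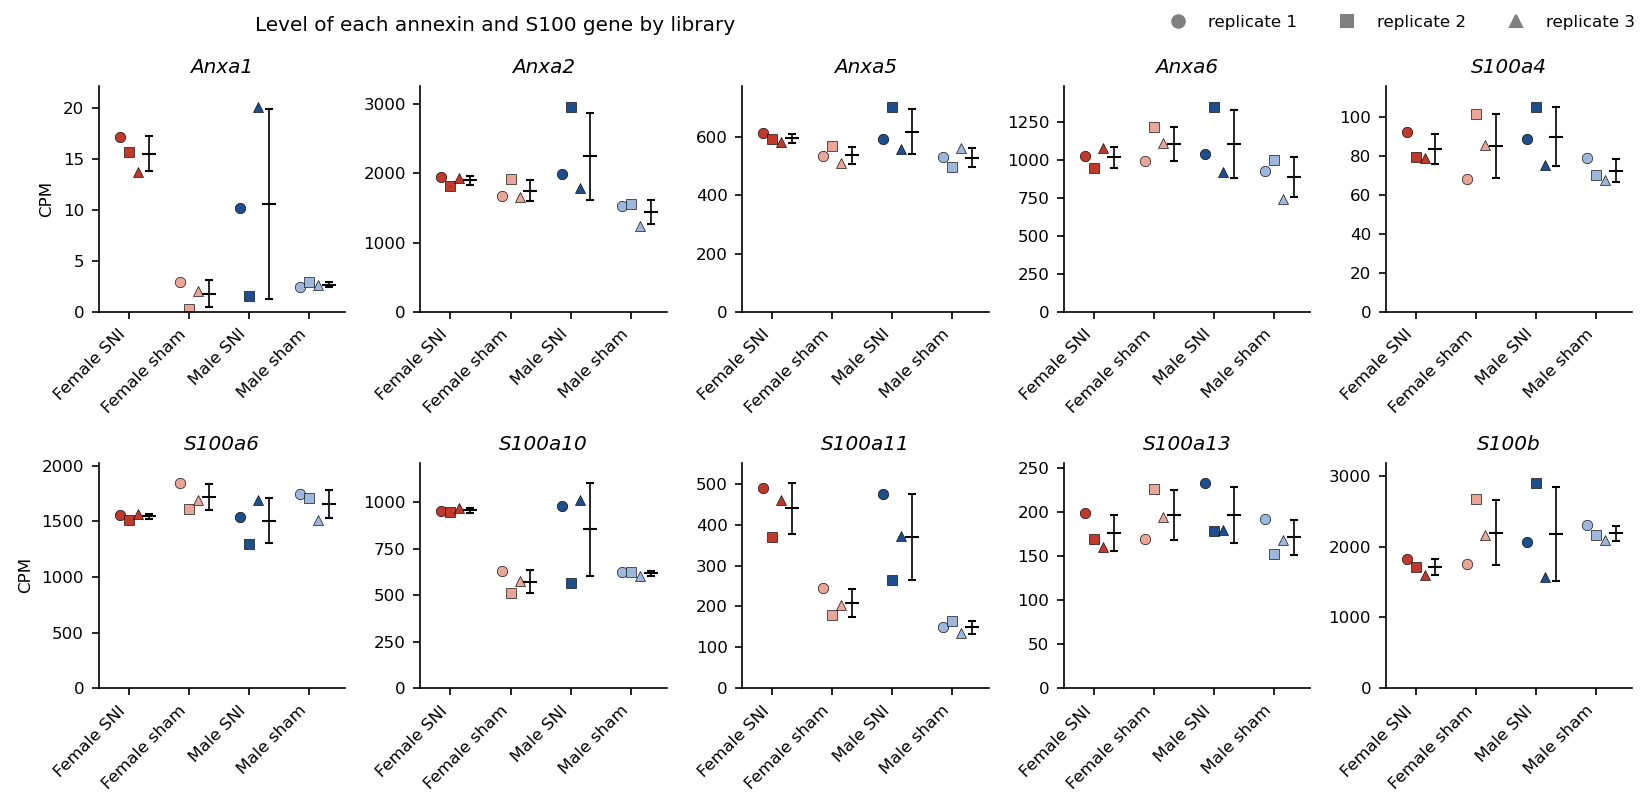
Level of each of the 10 genes in each of the 12 libraries, in CPM on axes that start at 0, with the group mean and SD (n = 3) beside the points. S100a11 is the gene whose 6 SNI libraries, at 264.5 CPM or more, all lie above its 6 sham libraries, at 245.8 CPM or less.

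S100a11, the annexin A1 partner, was at 489, 370 and 460 CPM in Female SNI, against 246, 178 and 205 CPM in Female sham. In males it was at 475, 264.5 and 372 CPM in Male SNI, against 149, 165 and 134 CPM in Male sham. Every SNI library was above every sham library, also across the sexes, as was so for 2.79% of all genes tested, and no other member did this. The means were 440 ± 62.1 CPM in Female SNI and 209.5 ± 34.1 CPM in Female sham, and 370.5 ± 105 CPM in Male SNI and 149 ± 15.7 CPM in Male sham (SD, n = 3 each). Its log2 change was 1.19 ± 0.14 (SE), a 2.28-fold rise with a 95% interval of 1.86 to 2.80 (edgeR, adjusted p = 0.000122). It rose in females by 1.07 ± 0.19 (edgeR, adjusted p = 0.00917) and in males by 1.31 ± 0.20 (edgeR, adjusted p = 0.00245). The call in females ended without Female SNI replicate 1 (adjusted p = 0.056) and without Female sham replicate 3 (adjusted p = 0.0551). Over the 12 fits that left out 1 library, its log2 change in females ran from 0.96 to 1.19. The gene lies at chr3:93520496-93526288 on the plus strand, and its last 300 bases match the processed pseudogenes Gm12854 and Gm7665 at 98.1% and 97.5% over 160 bases. Neither has a row in the count files, and the sources used here do not say how reads that fit several places were counted.

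S100a10, the annexin A2 partner, varied little within Female SNI and Male sham. It was at 952, 945 and 970 CPM in Female SNI, against 631, 511 and 577 CPM in Female sham. It was at 980, 567 and 1014 CPM in Male SNI, against 624, 625 and 602 CPM in Male sham. All Female SNI libraries were above all Female sham libraries, as for 13.1% of all genes tested, while Male SNI replicate 2 was below the 3 Male sham libraries. The log2 change averaged over the sexes was 0.60 ± 0.12, a 1.52-fold rise with a 95% interval of 1.26 to 1.83 (edgeR, adjusted p = 0.00888). It rose in females by 0.74 ± 0.18 (edgeR, adjusted p = 0.0382), a call that ended in 9 of the 12 fits that left out 1 library, all but those without a Male SNI library, and with library totals alone in place of TMM factors (adjusted p = 0.0615). Over those 12 fits its log2 change in females ran from 0.66 to 0.81. In males the log2 change was 0.47 ± 0.18 (edgeR, adjusted p = 0.227). Without Male SNI replicate 2 it was 0.70 ± 0.10 (edgeR, adjusted p = 0.000479), the only call among the 12 fits that left out 1 library, whose values ran from 0.33 to 0.70 with an adjusted p of up to 0.475. S100a10 lies at chr3:93555117-93564645 on the plus strand, and no other gene shares exon bases with it.

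Anxa1 encodes annexin A1, a ligand of formyl peptide receptors known for limiting inflammation, and it was the least counted of the 10, with 4 to 294 counts per library. It was at 17.2, 15.6 and 13.7 CPM in Female SNI, against 2.92, 0.303 and 2.09 CPM in Female sham. It was at 10.2, 1.54 and 20.1 CPM in Male SNI, against 2.45, 2.91 and 2.61 CPM in Male sham. The female groups did not overlap, as for 13.1% of all genes with every Female SNI library above every Female sham library. In males the SNI libraries lay on both sides of the sham libraries, since Male SNI replicate 2 was below all 3. The log2 change averaged over the sexes was 2.56 ± 0.50, a 5.89-fold rise with a 95% interval of 2.78 to 12.5 (edgeR, adjusted p = 0.00676). In females it rose by 3.12 ± 0.73 (edgeR, adjusted p = 0.0346), a call that remained in 2 of the 12 fits that left out 1 library, with Male SNI replicate 2 or Male SNI replicate 3 left out. Over those 12 fits its log2 change in females ran from 2.63 to 3.66. In males the log2 change was 2.0 ± 0.70 (edgeR, adjusted p = 0.189), which passed in 1 of the 12 fits that left out 1 library. Without Male SNI replicate 2 it was 2.51 ± 0.46 (edgeR, adjusted p = 0.0041), and without Male SNI replicate 3, the library at 20.1 CPM, it was 1.13 ± 0.66 (edgeR, adjusted p = 0.327). The gene lies at chr19:20373434-20390671 on the minus strand.

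The averaged rises of Anxa1, S100a10 and S100a11 passed in each of the 12 fits that left out 1 library, with log2 changes of 2.13 to 2.84, 0.53 to 0.72 and 1.08 to 1.29. Anxa1 and S100a10 moved together over the libraries. Libraries with S100a10 at 945 CPM or more had Anxa1 at 10.2 CPM or more, and those with S100a10 at 631 CPM or less had Anxa1 at 2.92 CPM or less. Male SNI replicate 2 was among the second set.

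**Figure D2:**
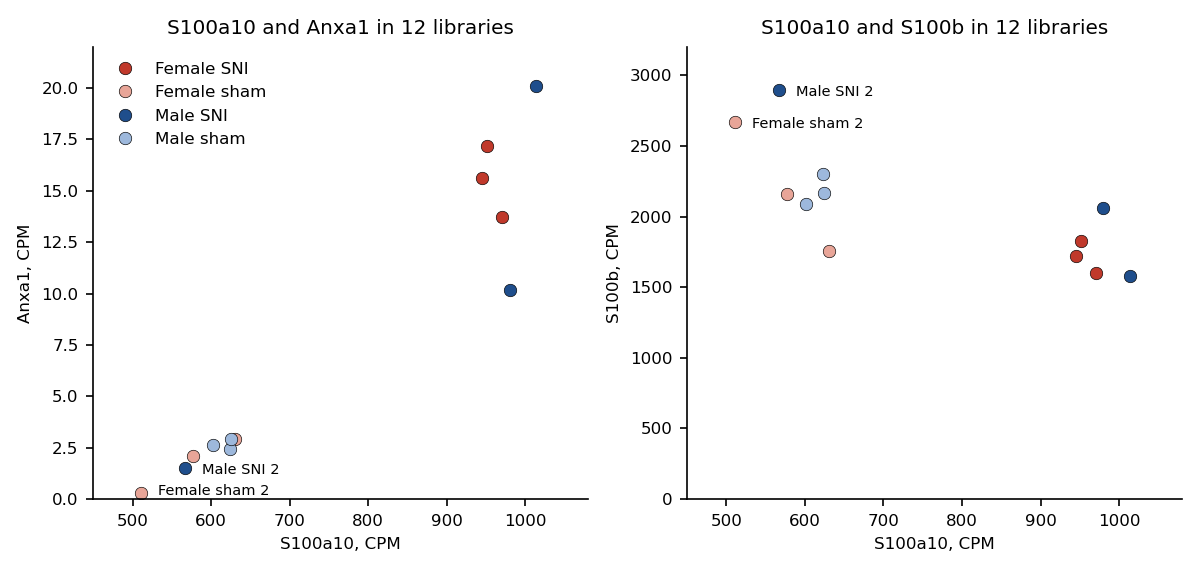
Level of Anxa1 (left) and of S100b (right) against that of S100a10 in the 12 libraries, all in CPM, coloured by group, where the S100a10 axis does not start at 0. Male SNI replicate 2, at 567 CPM of S100a10, lies within the sham range of that gene, and Female sham replicate 2, at 511 CPM, has the lowest S100a10 of all.

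Anxa2, which encodes the annexin that S100A10 binds, was at 1948, 1824 and 1930 CPM in Female SNI, against 1679, 1922 and 1654 CPM in Female sham. It was at 1992, 2965 and 1782 CPM in Male SNI, against 1522, 1556 and 1237 CPM in Male sham. The male groups did not overlap, as for 9.09% of all genes with every Male SNI library above every Male sham library, the female groups did, and Male SNI replicate 2 held the highest level of all. The log2 change averaged over the sexes was 0.38 ± 0.12 with a 95% interval of 0.13 to 0.64 (edgeR, adjusted p = 0.0772), 0.12 ± 0.17 in females (edgeR, adjusted p = 0.81) and 0.64 ± 0.17 in males (edgeR, adjusted p = 0.0708). The male change was 0.39 ± 0.11 without Male SNI replicate 2 (edgeR, adjusted p = 0.0687), 0.79 ± 0.16 without Male SNI replicate 3 (edgeR, adjusted p = 0.0172) and 0.40 ± 0.10 without both libraries that stood apart (edgeR, adjusted p = 0.0226). The averaged change passed without Male SNI replicate 2, at 0.26 (edgeR, adjusted p = 0.032), without Male SNI replicate 3, at 0.45 (edgeR, adjusted p = 0.0233), and without both libraries that stood apart, at 0.30 (edgeR, adjusted p = 0.00784). It also passed with library totals alone (0.35, adjusted p = 0.0422), with DESeq2 (0.39, adjusted p = 0.0362) and with weighted limma (0.31, adjusted p = 0.00627). The gene lies at chr9:69453683-69491792 on the plus strand and shares 98 exon bases with the antisense gene Gm16144, 12197 bases from its 3′ end.

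Anxa5 encodes annexin A5, which binds phosphatidylserine on the surface of dying cells. It was at 612, 594 and 581 CPM in Female SNI, against 534, 568 and 511 CPM in Female sham. It was at 591, 704 and 557 CPM in Male SNI, against 529, 498 and 561 CPM in Male sham. The female groups did not overlap, as for 13.1% of all genes with every Female SNI library above every Female sham library, and the averaged log2 change was 0.19 ± 0.08 (edgeR, adjusted p = 0.226). Anxa6, a large annexin with a doubled core, was at 945 to 1082 CPM in Female SNI, against 994 to 1219 CPM in Female sham. In males it was at 924 to 1353 CPM in Male SNI, against 744 to 999 CPM in Male sham. Its groups overlapped in both sexes, and its log2 change was 0.09 ± 0.11, with a 95% interval of -0.14 to 0.33 (edgeR, adjusted p = 0.741). Anxa5 lies at chr3:36448923-36475887 and Anxa6 at chr11:54978953-55033471, both on the minus strand.

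**Figure D3:**
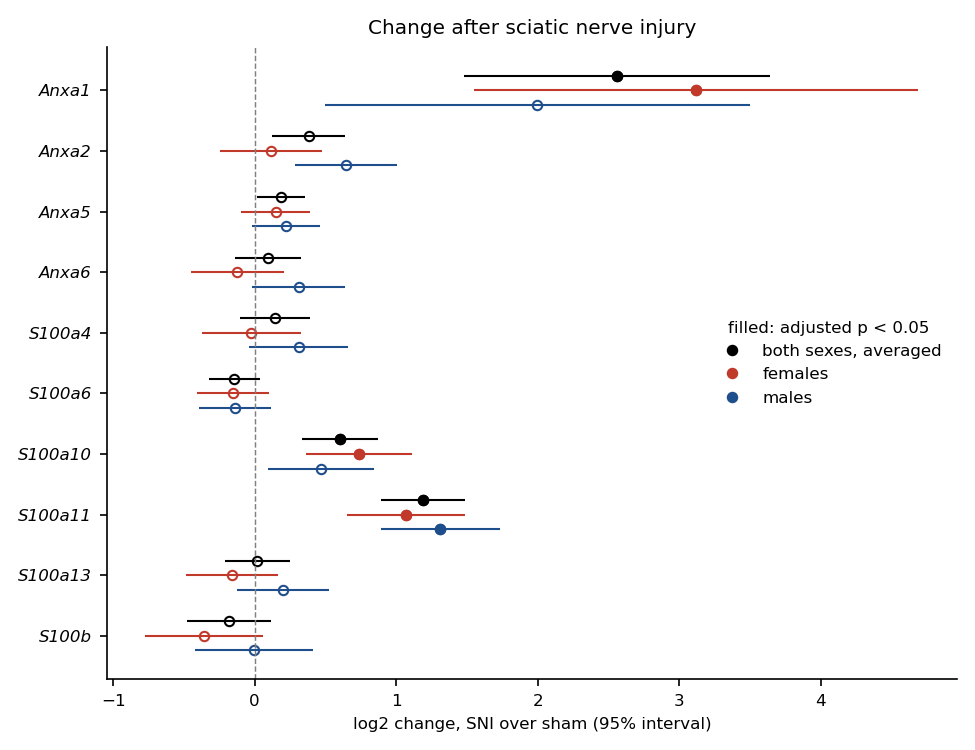
Log2 change of each gene in SNI over sham with its 95% interval, averaged over the sexes (black), in females (red) and in males (blue), where filled points have an adjusted p under 0.05. Only S100a11 is filled in all 3 comparisons, at 1.19, 1.07 and 1.31.

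The 3 members of the main S100 gene cluster did not pass. S100a6, whose protein calcyclin binds annexins and the calcyclin-binding protein, was at 1555, 1516 and 1562 CPM in Female SNI, against 1844, 1614 and 1690 CPM in Female sham. It was at 1534, 1295 and 1691 CPM in Male SNI, against 1746, 1710 and 1514 CPM in Male sham. Every Female SNI library lay below every Female sham library, as for 13.4% of all genes, and the averaged log2 change was -0.14 ± 0.08 with a 95% interval of -0.33 to 0.04 (edgeR, adjusted p = 0.41). S100a4, whose protein binds non-muscle myosin, was at 78.9 to 92.4 CPM in Female SNI, against 68.2 to 101 CPM in Female sham. In males it was at 75.2 to 105 CPM in Male SNI, against 67.6 to 78.9 CPM in Male sham. Its groups overlapped in both sexes, its log2 change was 0.14 ± 0.12 (edgeR, adjusted p = 0.585), and it shares 302 exon bases with Gm42674 on the same strand, so its count is uncertain. S100a13, whose protein takes part in the release of fibroblast growth factor 1, was at 160 to 199.6 CPM in Female SNI, against 170.2 to 227 CPM in Female sham, while it was at 178 to 233 CPM in Male SNI, against 153 to 193 CPM in Male sham. Its log2 change was 0.02 ± 0.11 with a 95% interval of -0.21 to 0.25 (edgeR, adjusted p = 0.963), and its RefSeq span overlaps that of S100a1.

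S100b encodes a protein that is used as a marker of glia and can signal through the receptor RAGE. Counted in whole ganglia, S100b cannot be assigned to glia or to another cell type. It was at 1830, 1718 and 1599 CPM in Female SNI, against 1760, 2673 and 2160 CPM in Female sham. It was at 2063, 2898 and 1576 CPM in Male SNI, against 2302, 2167 and 2092 CPM in Male sham. The groups overlapped in both sexes, and the highest levels were those of the libraries that stood apart. The averaged log2 change was -0.18 ± 0.14 with a 95% interval of -0.47 to 0.11 (edgeR, adjusted p = 0.556). Leaving out 1 library at a time gave values of -0.31 to -0.09, none with an adjusted p under 0.0535. S100b lies at chr10:76253836-76261319 on the plus strand, away from the other S100 genes.

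In females 3 of the 10 rose (Anxa1, S100a10 and S100a11), where 1.6% of all genes tested rose, and in males 1 did (S100a11), where 1.65% rose. The difference between the sexes was itself tested as an interaction, in which the change in females is subtracted from that in males. The count of members called was 0 with edgeR, DESeq2 and weighted limma, as was the count over all genes (0%, with 1100 genes at an unadjusted p under 0.05). At an unadjusted p under 0.05 there was 1 member, Anxa2, whose change was 0.64 in males and 0.12 in females, a difference of 0.53 ± 0.24 with a 95% interval of 0.02 to 1.03 (edgeR, adjusted p = 0.647). That difference was 0.27 ± 0.15 without Male SNI replicate 2 and 0.21 ± 0.14 without both libraries that stood apart. For Anxa1 the change was 2.0 in males and 3.12 in females, a difference of -1.12 ± 0.98 whose interval of -3.22 to 0.98 leaves room for either sex to have changed more. It was -0.61 ± 0.64 without Male SNI replicate 2, -0.63 ± 0.89 without Female sham replicate 2, -1.99 ± 0.92 without Male SNI replicate 3 and -0.11 ± 0.44 without both libraries that stood apart. Setting males against females gave 0 members in sham libraries and 0 after injury with edgeR, where 0.0399% of all genes differed in each. At an unadjusted p under 0.05 there was 1 member in sham libraries and 0 after injury. That member was S100a11, at 149 ± 15.7 CPM in Male sham and 209.5 ± 34.1 CPM in Female sham (SD, n = 3 each), a log2 difference of -0.49 ± 0.19 (edgeR, adjusted p = 0.938).

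Macrophage markers also rose after injury, averaged over the sexes. Of 15 macrophage markers 14 rose, with a median log2 change of 1.21, and their summed level was 361 to 452 CPM in Female SNI, against 151 to 211 CPM in Female sham. In males it was 302.5 to 491 CPM in Male SNI, against 133 to 176 CPM in Male sham. The levels did not overlap between SNI and sham libraries. Male SNI replicate 2 had the lowest S100a11, S100a10 and Anxa1 of its group. It had the group's highest sums of macrophage markers, 491 CPM, and of neuron markers, 29382 CPM. Its sums of neutrophil and satellite glia markers were the lowest of the group, at 165 and 1701 CPM. Those of myelinating Schwann cell and fibroblast markers were also the group's lowest, at 4328 and 3230 CPM. Of 7 neutrophil markers tested 2 rose, S100a8 and Ltf, with a sum of 159 to 331 CPM in Female SNI, against 134 to 222 CPM in Female sham. In males the sum was 165 to 507 CPM in Male SNI, against 108 to 216 CPM in Male sham. Of 9 satellite glia markers 1 rose, the glutamine synthetase gene Glul, by 0.55 ± 0.07 (edgeR, adjusted p = 0.000326). Of 8 fibroblast markers 1 rose, Apod. Of 10 neuron markers 3 fell (Nefh, Nefm and Rbfox3) and 1 rose (Elavl3). The T and NK cell markers summed to at most 0.813 CPM in any library. The part of these cells in the members' changes was not tested.

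The rest of both families was described from lists of the same kind. Of 8 other annexins 6 were tested and 1 rose, Anxa10, whose function is little known. It was at 4.94, 8.56 and 3.74 CPM in Female SNI, against 1.05, 0.529 and 0.404 CPM in Female sham, and at 6.01, 5.45 and 5.20 CPM in Male SNI, against 0.891, 0.842 and 0.764 CPM in Male sham. Every SNI library was above every sham library, as for 2.79% of all genes tested. The log2 change was 2.92 ± 0.32 (edgeR, adjusted p = 7.0e-05), with a call in each of the 12 fits that left out 1 library. Anxa7 had a log2 change of -0.06 ± 0.18 (edgeR, adjusted p = 0.918) and Anxa9 one of 0.12 ± 0.12 (edgeR, adjusted p = 0.675). The other 3 tested did not pass. The median over the 6 was 0.11. Of 10 other S100 genes 6 were tested and 1 rose, S100a8, by 1.02 ± 0.25 (edgeR, adjusted p = 0.0236). That call remained in 5 of the 12 fits that left out 1 library. The library left out of them was Female SNI replicate 1, 1 of Male SNI replicates 2 and 3, or replicate 3 of either sham group. S100a1, best known from heart and skeletal muscle, rose in males by 0.86 ± 0.20 (edgeR, adjusted p = 0.0409), at 57.9, 95.1 and 50.04 CPM in Male SNI, against 40.4, 36.6 and 35.1 CPM in Male sham. That call remained in 3 of the 12 fits that left out 1 library, where replicate 2 or 3 of the Male SNI group or replicate 1 of the Female sham group was left out, and without Male SNI replicate 2 its change was 0.53. Skeletal muscle markers summed to 1650 CPM in Male SNI replicate 1 and to 147 to 256 CPM in the other 11 libraries. In those 11 the sum was mostly the listed gene Pvalb, whose level ranged from 107 to 219 CPM over all 12. The sums there thus say little about the rest of the list. The part of the muscle markers in the level of S100a1 was not tested. With male libraries alone the change of S100a1 was 0.86 (edgeR, adjusted p = 0.27).

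**Figure D4:**
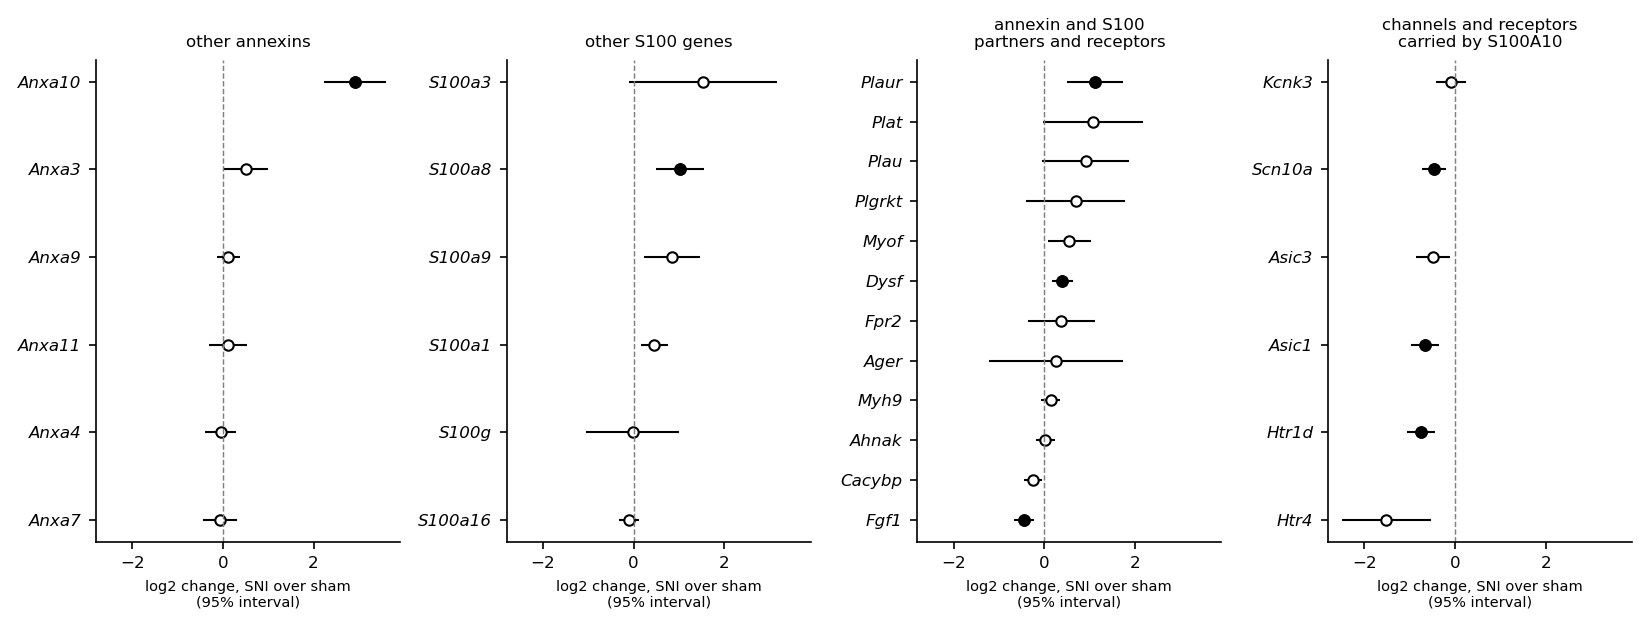
Log2 change in SNI over sham, averaged over the sexes, with its 95% interval, for the tested genes of 4 lists (other annexins, other S100 genes, partners and receptors, and channels and receptors listed as carried by S100A10), where filled points have an adjusted p under 0.05. Anxa10 at 2.92 stands farthest to the right, and the estimates of the 6 channel and receptor genes all lie below 0, that of Kcnk3 with an interval across 0.

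Of 16 partners and receptors 12 were tested, 2 rose and 1 fell, with a median log2 change of 0.38. Plaur, the urokinase receptor of the plasminogen system that the annexin A2 complex also serves, was at 5.79, 5.85 and 7.86 CPM in Female SNI, against 3.52, 2.42 and 3.77 CPM in Female sham. It was at 3.33, 4.76 and 5.41 CPM in Male SNI, against 1.48, 3.21 and 1.08 CPM in Male sham, and rose by 1.12 ± 0.29 (edgeR, adjusted p = 0.0316). Dysf, whose product dysferlin works with annexins in membrane repair, rose by 0.39 ± 0.11 (edgeR, adjusted p = 0.0458), and did not pass with no filter on low counts (adjusted p = 0.0523) or with a replicate block (adjusted p = 0.0594). The call of Plaur remained in 3 of the 12 fits that left out 1 library (with replicate 1 or 2 of the Male SNI group or replicate 2 of the Male sham group left out) and that of Dysf in 2 (with Male SNI replicate 2 or Male SNI replicate 3 left out). Fgf1, the growth factor whose release S100A13 assists, was at 328, 323 and 364 CPM in Female SNI, against 492, 577 and 511 CPM in Female sham, and at 344, 502 and 343 CPM in Male SNI, against 491, 460 and 484 CPM in Male sham. It fell by 0.45 on the log2 scale (SE 0.10; edgeR, adjusted p = 0.0156), and the call ended without Female SNI replicate 2 (adjusted p = 0.0514). Ahnak, a large scaffold at the annexin A2 complex, had a log2 change of 0.02 ± 0.10 (edgeR, adjusted p = 0.95). Fpr3 had no count in any library.

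The tested genes listed as channels and receptors carried by S100A10 had averaged log2 estimates below 0, where that of S100a10 was above 0. Listing does not establish that S100A10 carries each of them, Asic3 included. Of 10 listed 6 were tested, 3 fell, each of the 6 had an estimate below 0, and the median was -0.57. In females 2 of the 6 fell, Scn10a and Asic1, and in males no call was made with edgeR, where 1 of the 6 was lower at an unadjusted p under 0.05 (Htr1d) and 1 higher (Kcnk3). The log2 change in males was 0.51 ± 0.22 for Kcnk3, a background potassium channel gene (edgeR, adjusted p = 0.295), -0.07 ± 0.25 for Asic3 (edgeR, adjusted p = 0.935), -0.20 ± 0.17 for Scn10a (edgeR, adjusted p = 0.639) and -0.31 ± 0.21 for Asic1 (edgeR, adjusted p = 0.539). Htr1d, a serotonin receptor gene, was at 12.1, 16.6 and 14.2 CPM in Female SNI, against 27.6, 22.7 and 19.9 CPM in Female sham, and at 15.2, 16.7 and 13.01 CPM in Male SNI, against 28.3, 20.7 and 27.8 CPM in Male sham. Every SNI library was below every sham library, as for 2.04% of all genes, and the log2 change was -0.74 ± 0.14 (edgeR, adjusted p = 0.00621). Asic1, the acid-sensing channel gene, was at 27.1, 26.6 and 30.6 CPM in Female SNI, against 53.0, 53.8 and 63.5 CPM in Female sham, and at 28.8, 49.7 and 26.0 CPM in Male SNI, against 43.5, 41.4 and 44.6 CPM in Male sham. It fell by 0.66 on the log2 scale (SE 0.15; edgeR, adjusted p = 0.0144). Scn10a, the gene of Nav1.8, was at 272, 300 and 290 CPM in Female SNI, against 452, 514 and 460 CPM in Female sham, and at 272, 475 and 299 CPM in Male SNI, against 400.5, 393 and 409 CPM in Male sham. It fell by 0.46 on the log2 scale (SE 0.12; edgeR, adjusted p = 0.0332), a call that remained in 1 of the 12 fits that left out 1 library, the one without Male SNI replicate 2. The calls of Htr1d and Asic1 remained in all 12. Male SNI replicate 2 had the highest level of Scn10a and Asic1 in its group and the lowest of S100a10. Asic3, Kcnk3 and Htr1d were also highest there, at 172, 96.5 and 16.7 CPM, and Htr4 was lowest, at 0.23 CPM. Genes outside this list went the same way, with Nefh and Fgf1 highest there, at 3600 and 502 CPM. This library stood apart along the leading principal axis, so the pattern is not particular to these genes.

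S100a11 and S100a10 are neighbours on chromosome 3, with starts 34.6 kb apart, and both rose. S100a13, S100a4 and S100a6 lie in the main S100 cluster on the same chromosome, 3006.3, 2916.7 and 2907.6 kb before S100a11, at chr3:90514233-90524581, chr3:90603770-90606045 and chr3:90612894-90614414. Within 100 kb of S100a11, the only other tested gene was Tchh, with a log2 change of 0.41 ± 0.50 (edgeR, adjusted p = 0.756). Sprr1a, named after its value was seen, is a cornified-envelope gene that injured sensory neurons switch on. It lies 1036.5 kb before S100a11 and rose by 2.79 ± 0.12 (edgeR, adjusted p = 4.9e-09).

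**Figure D5:**
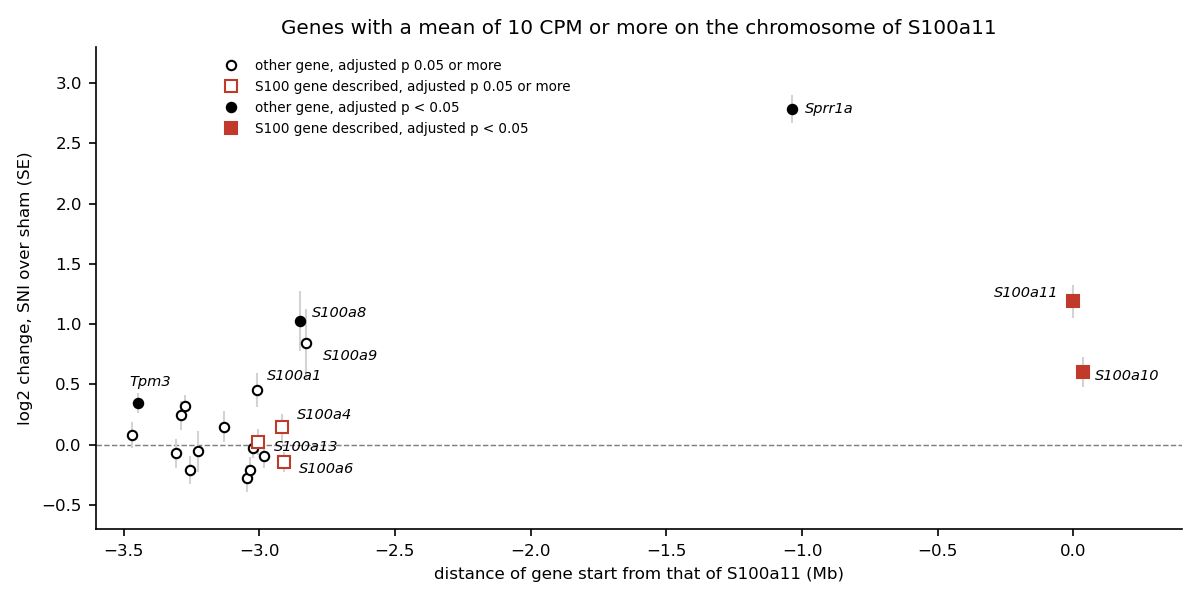
Log2 change in SNI over sham, averaged over the sexes, with its SE, against the distance of each gene's start from that of S100a11 in Mb, for tested genes averaging at least 10 CPM. The S100 genes described here are red squares, filled at an adjusted p under 0.05: S100a11 and S100a10 stand together at the right, at 1.19 and 0.60, and S100a13, S100a4 and S100a6 at the left lie between -0.14 and 0.14.

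The genes whose pattern was most like that of each member were ranked by Pearson's r of log2 CPM over the 12 libraries, among 9024 genes averaging 10 CPM or more, as a description without a test, since the libraries share the injury and their depth. Anxa1 and S100a10 had the same leading gene, Gfra1, a receptor for glial cell line-derived neurotrophic factor, at r = 0.98 with Anxa1 and 0.988 with S100a10. S100a10 was itself the next for Anxa1, at r = 0.979, and Tpm4, a tropomyosin, the next for S100a10, at r = 0.982. S100a11 was led by Cd63, a tetraspanin of endosomes, at r = 0.973, then Ildr2 and Sox9, at 0.96 and 0.943. The log2 change of Cd63 was 0.92 ± 0.12, which follows in part from its being picked by likeness to S100a11 in these libraries. Without the libraries that stood apart, r was 0.986 for Gfra1 with Anxa1, 0.984 with S100a10 and 0.975 for Cd63 with S100a11. Anxa2 was led by Atp6v0b, a subunit of the vacuolar proton pump, at r = 0.995, S100b by Cmas at 0.972 and Anxa6 by Adam15 at 0.965. S100a13 had the least close leader, Ten1, at r = 0.823.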

How the data were processed

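RNA of mouse lumbar dorsal root ganglia was measured in 12 libraries, 3 in each of 4 groups taken from the labels. Raw, unscaled counts for each gene symbol were deposited, in 1 file for each library. Libraries were made with a QuantSeq 3′ kit, per the labels' protocols. Levels of different genes may not be comparable, since how fully each gene's 3′ end was counted was not checked. The submitters' processing notes name mm10, Bowtie2 and bedtools without version or role. The sources used here do not say how strand and multiply mapped reads were handled. Of 23282 rows, 44 repeated a symbol and were summed, and no row was unnamed. Totals were 12476606 to 15520746.

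Genes were kept by filterByExpr (minimum count 10), scaled by TMM and fitted with edgeR 4.0.16 (limma 3.58.1, R 4.3.3), with 1 coefficient per group over the 12 libraries. Two-sided quasi-likelihood F tests covered 6 contrasts, with Benjamini-Hochberg adjustment over 15036 genes and calls at an adjusted p under 0.05. The fit was tested on simulated data. Intervals are 95% for a single gene. Group values are CPM, mean ± SD. No replicate pair agreed within sampling noise (chi-square per gene at least 8.64). Alternatives were other scalings, no filter, no Rn45s row, DESeq2 1.42.0, limma's voom with library quality weights (a change of method and of weighting at once), libraries left out and a replicate block. Positions and promoters came from RefSeq GRCm38.p6, overlaps and copies from GENCODE. The members, the 16 lists and the tests were chosen with earlier results of these data known. The genes named were every member, up to 3 genes with the most similar pattern to each, and at most 4 genes of a related list, called ones first.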

Additional observations from a re-analysis of the deposited data

How the results depend on the processing

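In no result described did a called value change sign under any alternative run. Over the members and the called genes of the related lists, 1354 values kept their direction and side of the threshold, 103 no longer passed, 18 newly passed and 52 uncalled values changed sign. Genes called on average were 980, against 2008 with limma's voom and library quality weights together and 1848 without both Male SNI replicate 2 and Female sham replicate 2, and 626 to 1766 over the fits that left out 1 library. In females 435 were called, against 738 with DESeq2, 1562 with weighted limma, 986 without both libraries and 905 with female libraries alone, and 155 to 1176 over the fits that left out 1 library. In males 321 were called, against 647 with DESeq2, 693 with weighted limma, 698 without both libraries and 71 with male libraries alone, and 137 to 601 over the fits that left out 1 library. Of the members, 3 to 4 were called on average over those fits, 0 to 3 in females and 1 to 3 in males. In males 1 member was called, against 2 with library totals alone, 3 with DESeq2, 4 with weighted limma and 4 without both libraries. Males against females gave 6 genes in sham, against 11 with DESeq2, and 6 after injury, against 13 without both libraries. The cause of these shifts was not tested.

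These data could not decide whether equal replicate numbers mark paired libraries, since deviations within groups of 3 are not independent. Over 18 same-number pairs the correlations of deviations ran from -0.147 to 0.562, with 4 above 0.1, against -0.553 to 0.496 over 36 pairs of unlike number. The highest value, 0.562, was that of Male SNI replicate 2 and Female sham replicate 2. Of 12 libraries 6 were closest to one of their own number in another group. With the number as a replicate block, 936 genes were called on average, 437 in females and 295 in males, and 3, 3 and 1 members, as without it. Anxa1 is the member that depth limits most, at 4 counts in its lowest library.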
